A study of Mus musculus with 3 samples.

Results

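The genes described here encode collagens, laminins and other basement membrane proteins, elastic fibre and matricellular glycoproteins, and the integrin chains that bind them. They were chosen by symbol alone, from a list of collagen, laminin, nidogen, fibrillin, fibulin, thrombospondin and integrin names with perlecan, agrin, Sparc, fibronectin, tenascin C, elastin, nephronectin, the Fras and Frem genes and matrix Gla protein. Of 92 matching symbols on the array, 87 had a value on all 3 arrays, out of 14047 genes that did, and these 87 members rested on 98 probes.

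The samples were kidney tissue of CD1 mouse embryos, pooled from both sexes and taken by microdissection. Each of 3 two-colour oligonucleotide arrays paired a channel 1 of metanephric mesenchyme, dissected at 10.5 days post coitum (dpc), with a channel 2 of metanephroi at 11.5 dpc, both as amplified RNA. The labels give the dye order as red/green on arrays 1 and 2 and as green/red on array 3, and name no common reference. Separate dissections are not stated for the arrays, so every p-value here reflects no more than array-to-array spread, possibly technical. Values are log2 ratios between channels, and no source used here names the numerator tissue. Ratios are therefore described by sign alone, and neither sign is tied to an age. In whole tissue, fewer cells of a type and less RNA per cell cannot be told apart, and a ratio says nothing of the level of a gene in either tissue, so the labelled tissues could not be checked against their markers.

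Basement membranes are sheets of laminin and collagen IV networks, linked by nidogen and by the heparan sulfate proteoglycans perlecan and agrin, on which epithelia rest. Interstitial matrix, built from fibrillar collagens and their associated proteins, fills the space between mesenchymal cells. In the early kidney the ureteric bud carries a basement membrane as it enters the metanephric mesenchyme, and mesenchymal cells that become epithelium build one of their own. Nephronectin in the basement membrane of the bud binds the integrin of the Itga8 and Itgb1 chains on the mesenchyme, an interaction needed for bud outgrowth.

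Members lay on both sides of 0, with 42 positive mean ratios (48.3%, next to 49.8% of all genes) and 45 negative ones, and a median of -0.02, against a median of -0.00195 for all genes. With the direction of array 3 as deposited, the members furthest to the positive side were Mgp at 2.04 ± 0.24 (SD, n = 3) and Frem2 at 1.86 ± 1.02. Lama2, Col6a3 and Col8a2 followed at 0.90 ± 0.22, 0.86 ± 0.36 and 0.76 ± 0.51. On the negative side, among members with the same sign on every array, Thbs2 had -1.24 ± 0.68, Col4a3 had -1.18 ± 0.31 and Col23a1 had -1.15 ± 0.19. That direction was inferred from the data and stays uncertain, since over all probes array 3 correlated above 0 but only weakly with the others. All 4 renal stroma and all 5 limb bud and flank markers measured, named below, kept one sign over the arrays as deposited. Of 7 cartilage markers 5 did not. As deposited, 45.5% of all genes kept one sign over the 3 arrays, next to 25.6% with the sign of array 3 turned. Turned the other way, array 3 gave means of 0.67 for Mgp, -0.10 for Frem2 and 0.32 for Lama2. The means of Thbs2, Col4a3 and Col23a1 were then -0.39, -0.21 and -0.47, and none of these genes had an unadjusted p under 0.05 by limma. Each had one sign on every array as deposited, so the turn had to move its mean towards 0 and widen its spread.

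By limma's test of the mean ratio against 0, adjusted over all 14047 genes, 0 of the 87 members had an adjusted p under 0.05, as did 0 of all genes (0%), and the smallest adjusted p among members was 0.149. An unadjusted p under 0.05 was reached by 25 members, or 28.7%, next to 19.6% of all genes. Of these, 13 were positive (14.9% of members, against 9.89% of all genes) and 12 negative (13.8%, against 9.69%). Ratios of 39 members kept one sign over the 3 arrays, 21 positive and 18 negative. That is 44.8% of members, next to 45.5% of all genes (22.9% positive and 22.5% negative). A mean of at least 1 in log2 size, which is a 2-fold ratio, was found for 7 members or 8.05%, next to 8.06% of all genes. At probe level 27 of 98 member probes had an unadjusted p under 0.05 by limma, next to 17.5% of all probes, and 0 passed adjustment, as in all probes (0%).

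**Figure D1:**
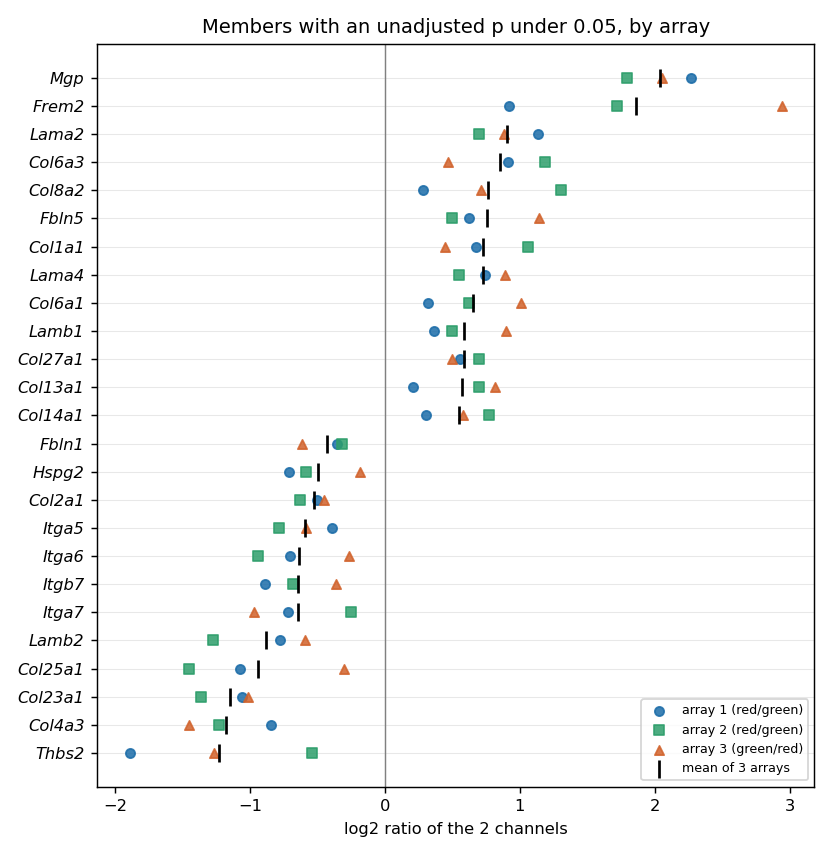
Log2 ratio of the 2 channels on each of the 3 arrays (symbols) and the mean of the 3 (black bar) for the 25 members with an unadjusted p under 0.05, ordered by mean. All arrays of each gene shown lie on one side of 0, from Mgp at a mean of 2.04 to Thbs2 at -1.24.

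These calls are lost when array 3 is turned, which was close to fixed in advance. All 25 had one sign on every array, so turning array 3 moves each mean towards 0 and widens its spread. Array 3 was kept as deposited because over all probes its Pearson correlation was above 0, although only 0.0517 against array 1 and 0.0148 against array 2. The Spearman values were 0.211 and 0.171. For arrays 1 and 2 the values over all probes were 0.324 by Pearson and 0.466 by Spearman. The 87 members are not independent replicates and share the arrays. Over them the Pearson value for array 3 was 0.156 against array 1 and 0.292 against array 2, and for the first 2 arrays it was 0.42. The Spearman values were 0.398, 0.358 and 0.514 in the same order. Array 3 lay on the side of the mean of arrays 1 and 2 for 25 members above 0 and 27 below it, and on the other side for 13 and 22. With array 3 turned the other way, 2 members, Itga2 and Itgax, had an unadjusted p under 0.05 by limma, next to 5.55% of all genes, and 0 of the 25 did. Without array 1 there were 9 such members, next to 8.23% of all genes, and 7 of the 25 were among them. Without array 2 there were 10 members, next to 10.3% of all genes, with 9 of the 25 among them. Without array 3 there were 23 members, next to 21% of all genes, with 16 of the 25 among them. Mgp, Lama2, Col4a3 and Col23a1 stayed under that threshold without each array in turn, as did 5.3% of all genes. One sign over all arrays was kept by 15 members (17.2%) with array 3 turned, next to 25.6% of all genes. Over the remaining pair it was kept by 52 members (59.8%) without array 1, by 59 (67.8%) without array 2 and by 54 (62.1%) without array 3, next to 59%, 60.9% and 71.1% of all genes. The members' share thus lay below that of all genes with array 3 turned or left out, and above it without array 2, differences that were not tested.

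**Figure D2:**
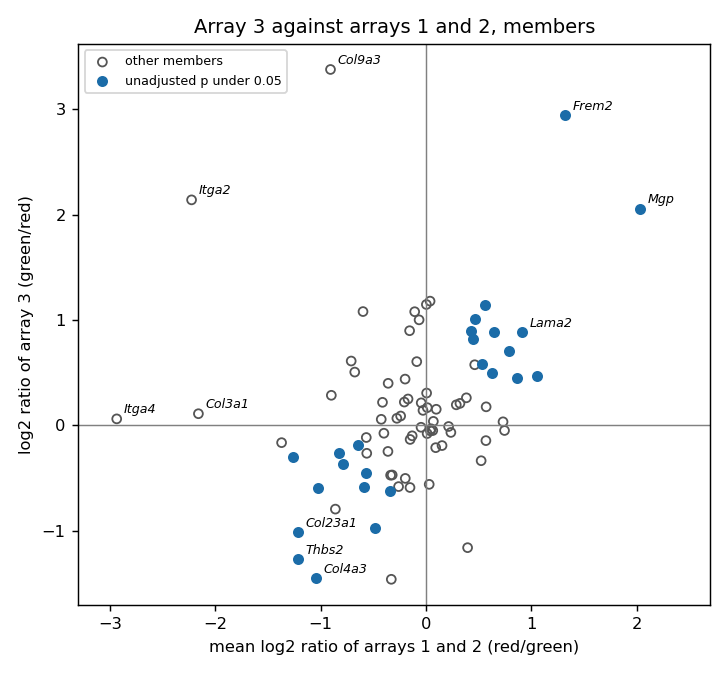
Log2 ratio on array 3 (vertical axis) against the mean log2 ratio of arrays 1 and 2 (horizontal axis) for the 87 members, with the 25 at an unadjusted p under 0.05 filled. Filled points lie in the lower left and upper right quadrants, which hold 27 and 25 members, while Itga2 and Col9a3 lie far into the upper left.

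**Figure D3:**
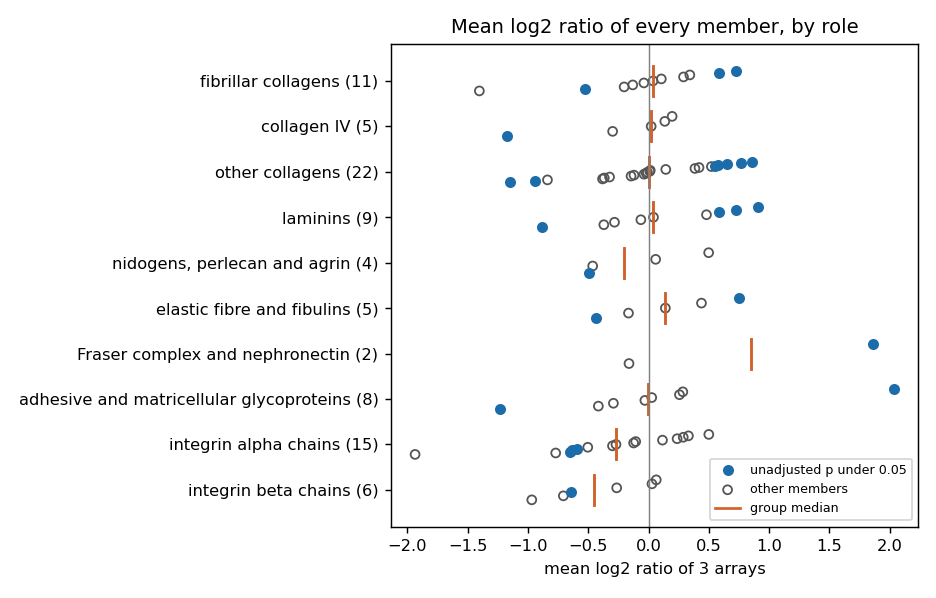
Mean log2 ratio of 3 arrays for each of the 87 members, grouped by role with the number measured in brackets. Filled points have an unadjusted p under 0.05 and the orange line is the group median, which lies at -0.27 for integrin alpha chains and at 0.04 for laminins.

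Fibrillar collagens form the cross-striated fibrils of interstitial matrix. Of 11 measured, 6 had a positive and 5 a negative mean, with a median of 0.04, and 2 positive (18.2%, next to 9.89% of all genes) and 1 negative member (9.09%, next to 9.69%) had an unadjusted p under 0.05. Without array 1 there were 0, next to 8.23% of all genes, and without array 2 also 0, next to 10.3%. Col1a1, the main chain of collagen I, had 0.68, 1.06 and 0.45 on arrays 1, 2 and 3, a mean of 0.73 ± 0.31. All 3 arrays were positive and array 2 was the highest. Its partner chain in the collagen I trimer, Col1a2, had 0.40, -0.10 and -0.19, a mean of 0.04 ± 0.32, so its arrays lay on both sides of 0. Col1a1 lay above Col1a2 on each array, by a log2 difference of 0.69 ± 0.45 (SD, n = 3).

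Col27a1, a fibrillar collagen of cartilage matrix, had 0.56, 0.69 and 0.50 on arrays 1 to 3, a mean of 0.58 ± 0.10. Col2a1, the collagen of cartilage and notochord, had -0.50, -0.63 and -0.46, a mean of -0.53 ± 0.09. These genes had among the narrowest spreads of the called members, on opposite sides of 0. Of 7 cartilage markers (Sox9, Sox5, Sox6, Acan, Matn1, Comp and Cnmd) 2 had a positive and 5 a negative mean, with a median by array from -0.22 to 0.32. Of these markers 0 had an unadjusted p under 0.05 by limma, next to 19.6% of all genes. Their part in the collagen ratios was not tested. Col24a1 had 0.34 ± 0.10 and was positive on all arrays.

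Col3a1, which forms fibrils together with collagen I, had 0.07, -4.39 and 0.11. Its mean of -1.40 ± 2.59 came from array 2 alone and was 0.09 without that array. Col5a1, a chain of the collagen that nucleates fibrils, had 0.29, -1.49 and 1.08. Among the other fibrillar members Col5a2 had -0.20 ± 0.36, Col5a3 had 0.11 ± 0.17, Col11a1 had -0.13 ± 0.22 and Col11a2 had 0.29 ± 0.68, and of these only Col5a3 had the same sign on all arrays.

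Collagen IV forms the network of basement membranes and is made of chains encoded by gene pairs that lie head to head. Of 5 measured chains, 3 had a positive and 2 a negative mean, with a median of 0.02. Col4a3 had -0.85, -1.23 and -1.45 on arrays 1, 2 and 3, a mean of -1.18 ± 0.31. Every array was below -0.8 and none overlapped with those of another measured collagen IV chain. Col4a4, the partner of Col4a3 in the trimer of the mature glomerular membrane, had 0.52, -0.05 and -0.07, a mean of 0.13 ± 0.33. It exceeded Col4a3 on each array, by a log2 difference of 1.31 ± 0.11. The other chains had arrays on both sides of 0. Col4a5, whose product joins the same trimer, had 0.20 ± 0.73, Col4a6 had 0.02 ± 0.19 and Col4a2 had -0.30 ± 0.32.

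Col4a1 and Col4a2, whose products form the collagen IV trimer of early basement membranes, are transcribed away from each other. Their start regions are shown because they share sequence. RefSeq windows of 300 bases, from 250 before to 50 after each start, were matched by symbol for 62 of the 87 members on GRCm38.p6. The windows of this pair, chr8:11312777-11313076 on the minus strand for Col4a1 and chr8:11312555-11312854 on the plus strand for Col4a2, overlap by 78 bases. Capitals mark GC boxes, which read GGGCGG, on either strand. They also mark boxes named for their letters CCAAT, again on either strand.
Col4a1: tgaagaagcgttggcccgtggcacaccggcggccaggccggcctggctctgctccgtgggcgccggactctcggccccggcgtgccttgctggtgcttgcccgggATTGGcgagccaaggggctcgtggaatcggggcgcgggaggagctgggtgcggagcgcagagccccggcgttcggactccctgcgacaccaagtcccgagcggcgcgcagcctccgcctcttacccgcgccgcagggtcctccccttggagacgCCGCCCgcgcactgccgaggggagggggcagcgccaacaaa
Col4a2: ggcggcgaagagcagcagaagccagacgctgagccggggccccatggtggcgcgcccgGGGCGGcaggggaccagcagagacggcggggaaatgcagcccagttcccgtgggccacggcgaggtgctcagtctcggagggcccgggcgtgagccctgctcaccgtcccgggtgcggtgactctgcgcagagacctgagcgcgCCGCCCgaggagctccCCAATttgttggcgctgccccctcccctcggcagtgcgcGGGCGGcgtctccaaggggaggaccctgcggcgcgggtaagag
The array measured Col4a1 poorly, with a value of -2.62 on array 3 and none on arrays 1 and 2. Col4a2 had -0.34, 0.04 and -0.59, so the pair gave no comparison over arrays.

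**Figure D4:**
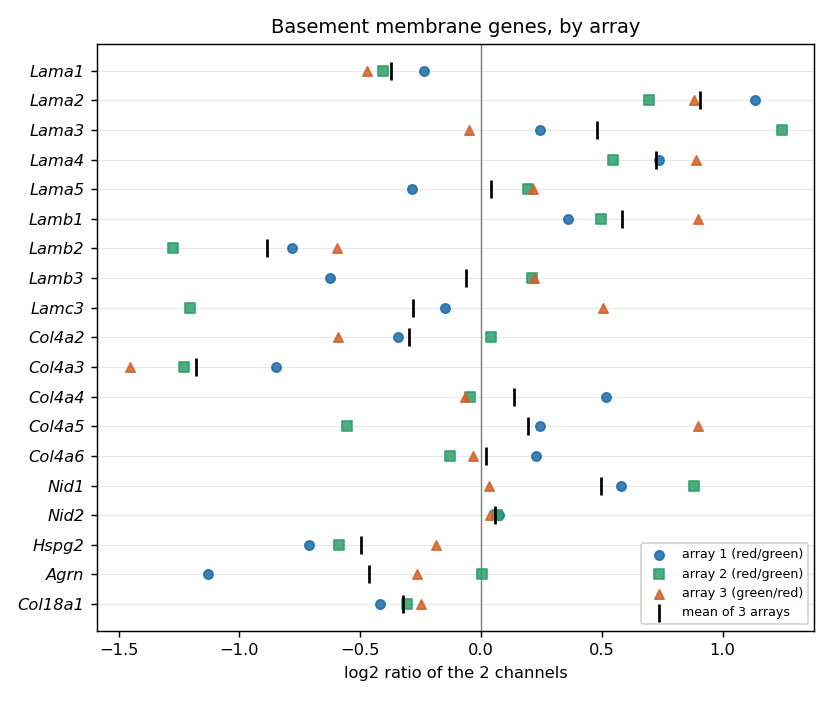
Log2 ratio of the 2 channels on each of the 3 arrays (symbols) and their mean (black bar) for 19 basement membrane genes. Lama2, Lama4 and Lamb1 lie to the right of 0 on every array, and so do Nid1 and Nid2, while Lama1 (by the probe measured on all arrays), Lamb2, Col4a3, Hspg2 and Col18a1 lie to the left.

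Laminins are cross-shaped trimers of an alpha, a beta and a gamma chain. Of 9 measured chains, 5 had a positive and 4 a negative mean, with a median of 0.04, and 3 positive chains (33.3%, next to 9.89% of all genes) and 1 negative chain (11.1%, next to 9.69%) had an unadjusted p under 0.05. In either direction there was 1 chain (11.1%) without array 1, next to 8.23% of all genes. There were 3 chains (33.3%) without array 2 and 3 without array 3, next to 10.3% and 21%, and 0 with array 3 turned, next to 5.55%. Lama2, an alpha chain of mesenchyme and muscle, had 1.13, 0.70 and 0.88 on arrays 1, 2 and 3, a mean of 0.90 ± 0.22, with every array above 0.6. Lama4, an alpha chain of vessels and mesenchyme, had 0.74, 0.55 and 0.89, a mean of 0.72 ± 0.17. Both alpha chains lay above 0 on every array, and their ranges overlapped.

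Lama1, the alpha chain of early epithelial basement membranes, had -0.23, -0.41 and -0.47 on the probe measured by all arrays, a mean of -0.37 ± 0.12. It lay below Lama2 on each array, by 1.28 ± 0.15, and below Lama4 by 1.10 ± 0.23. Its other probe had 1.32 on array 1 and 0.09 on array 3 with no value on array 2, so the probes were of opposite sign. Joining both probes gave Lama1 0.54, -0.41 and -0.19 on arrays 1 to 3, a mean of -0.018, with array 1 on the other side. Lama5, the alpha chain of the ureteric bud and later glomerulus, had 0.04 ± 0.28, and Lama3, an alpha chain of epithelial anchorage, had 0.48 ± 0.68. Both had arrays on each side of 0.

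The beta chains that can replace each other in laminin trimers stood on opposite sides. Lamb1, the beta chain of early basement membranes, had 0.36, 0.50 and 0.90, a mean of 0.59 ± 0.28. Lamb2, which takes its place in mature glomerular membranes, had -0.78, -1.28 and -0.60, a mean of -0.88 ± 0.35. No array of either gene overlapped with those of the other, and Lamb1 exceeded Lamb2 by 1.47 ± 0.32 on average. Turning array 3 gave Lamb1 a mean of -0.01, whereas Lamb2 stayed negative. Lamb3 had -0.06 ± 0.48 and Lamc3 -0.28 ± 0.86. Lamc1, the gamma chain of most laminins, had a value on array 3 alone, at -0.63.

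The start regions of Lama2, on the positive side, and of the beta chains, on opposite sides, are shown with the same letters in capitals. They lie at chr10:27616893-27617192 on the minus strand for Lama2, at chr12:31265043-31265342 on the plus strand for Lamb1 and at chr9:108479612-108479911 on the plus strand for Lamb2, all on GRCm38.p6.
Lama2: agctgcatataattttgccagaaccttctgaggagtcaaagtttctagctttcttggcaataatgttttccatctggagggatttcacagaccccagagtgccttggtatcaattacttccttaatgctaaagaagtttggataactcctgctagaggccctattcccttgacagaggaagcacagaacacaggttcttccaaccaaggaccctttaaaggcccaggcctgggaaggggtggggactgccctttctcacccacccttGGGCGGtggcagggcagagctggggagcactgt
Lamb1: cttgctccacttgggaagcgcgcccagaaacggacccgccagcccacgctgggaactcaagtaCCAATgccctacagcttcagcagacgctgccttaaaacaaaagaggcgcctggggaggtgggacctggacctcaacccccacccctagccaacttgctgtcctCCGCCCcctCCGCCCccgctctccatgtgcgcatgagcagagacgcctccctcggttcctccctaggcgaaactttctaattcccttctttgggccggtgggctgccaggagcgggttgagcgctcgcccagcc
Lamb2: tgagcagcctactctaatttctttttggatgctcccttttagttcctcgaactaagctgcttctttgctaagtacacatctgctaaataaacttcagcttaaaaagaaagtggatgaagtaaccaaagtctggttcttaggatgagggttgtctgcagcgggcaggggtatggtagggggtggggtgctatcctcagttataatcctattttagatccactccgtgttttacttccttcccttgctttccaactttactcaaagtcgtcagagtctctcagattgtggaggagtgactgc
The Lamb1 window holds 2 GC boxes and 1 box of the other kind, the Lama2 window 1 GC box, and the Lamb2 window 0 of either. Marked motifs share no letters in the windows shown, although the motif kinds can overlap elsewhere. A GC box was found for 39 of the 62 matched members (62.9%), next to 38.2% of all 27025 genes with a window. Those 27025 were not limited to genes measured on the arrays, so the sets are unlike. A CCAAT box was found for 21 (33.9%, next to 41.1%), and TATAAA on either strand for 7 (11.3%, next to 15.7%). Among the members at an unadjusted p under 0.05, a GC box was found for 5 of 9 matched positive members and 5 of 8 matched negative ones. These matches are a description of letters in one window per start.

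Nidogens link the laminin and collagen IV networks. Nid1 had 0.58, 0.88 and 0.03, a mean of 0.50 ± 0.43, while Nid2 had 0.07, 0.07 and 0.04, a mean of 0.06 ± 0.02. Both were positive on all arrays, and on array 3 both lay close to 0. Hspg2, which encodes perlecan, had -0.71, -0.59 and -0.19, a mean of -0.50 ± 0.27. Agrn, which encodes agrin, had -0.46 ± 0.59 over 3 probes that did not move together. One of its probes had -0.76, -0.91 and -0.81, another had -3.11 on array 1 but 0.30 and 0.02 on the others, and the third had 0.48, 0.63 and -0.00289. Col18a1, the basement membrane collagen whose fragment is endostatin, was negative on every array, at -0.42, -0.31 and -0.25.

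Of 22 further collagens, 5 positive (22.7%, next to 9.89% of all genes) and 2 negative members (9.09%, next to 9.69%) had an unadjusted p under 0.05. In either direction there were 5 (22.7%) without array 1, 1 (4.55%) without array 2 and 3 (13.6%) without array 3, next to 8.23%, 10.3% and 21% of all genes. Collagen VI makes beaded filaments around cells from chains that assemble together. Col6a3 had 0.91, 1.19 and 0.47 over 3 probes, a mean of 0.86 ± 0.36. Its probes agreed in sign of the mean but not in size, at 1.47 ± 0.08, 0.78 ± 0.47 and 0.32 ± 1.07. Col6a1 had 0.32, 0.62 and 1.01, a mean of 0.65 ± 0.35, and Col6a2 had 0.01, -1.73 and -0.80, a mean of -0.84 ± 0.87. Col6a2 lay below both partner chains on every array, by 1.49 ± 1.06 for Col6a1 and by 1.69 ± 1.08 for Col6a3. The mean of Col6a1 was -0.02 with array 3 turned.

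Of the collagens with a membrane-spanning segment, Col23a1 had -1.06, -1.37 and -1.01, a mean of -1.15 ± 0.19, and Col25a1 had -1.07, -1.45 and -0.30, a mean of -0.94 ± 0.59. Col13a1, of the same class, lay on the other side at 0.21, 0.70 and 0.82, a mean of 0.57 ± 0.32. The arrays of Col13a1 did not overlap with those of the other two. Col17a1, the transmembrane collagen of hemidesmosomes, had -0.15 ± 0.03.

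Col14a1, which coats fibrils, had 0.30, 0.77 and 0.58 over 2 probes, a mean of 0.55 ± 0.24, and Col8a2, a short-chain collagen of vessel walls and cornea, had 0.28, 1.30 and 0.71. Both were positive on every array. Col16a1 had -0.38 ± 0.09, negative on every array. Of the collagen IX chains, which coat cartilage fibrils, Col9a3 and Col9a2 had the widest spreads of the 22 with array 3 as deposited. Col9a3 ran from -1.75 on array 1 to 3.38 on array 3 and Col9a2 from -1.54 to 1.55, while Col9a1 had -0.02 ± 0.05. The other further collagens lay between Col6a4 at -0.37 ± 0.36 and Col15a1 at 0.42 ± 0.70, each with arrays on both sides of 0.

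Elastic fibres consist of elastin on a scaffold of fibrillins, with fibulins at their surface. Fbln5, which is needed for elastic fibre assembly, had 0.62, 0.49 and 1.14, a mean of 0.75 ± 0.34. Fbln1, a fibulin of basement membranes and mesenchyme, had -0.35, -0.32 and -0.62, a mean of -0.43 ± 0.16. The fibulins stood apart on every array, with Fbln5 higher by 1.19 ± 0.50. Turning array 3 left a sign change, since Fbln5 had a mean of -0.0067. Fbn2, the fibrillin of embryonic tissue, had 0.62, 0.53 and 0.18 and was positive throughout, while Eln had 0.14 ± 0.23 and Fbln7 -0.17 ± 0.35. Fbln2 had a value on array 2 alone, at 0.09.

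Frem2 encodes a protein of the Fraser complex, which holds embryonic epithelia to the underlying mesenchyme and whose loss leads to missing kidneys. It had 0.92, 1.72 and 2.94 on arrays 1, 2 and 3, a mean of 1.86 ± 1.02. All arrays were positive, but array 3 was far above array 1. Its mean was -0.10 with array 3 turned. Npnt, which encodes nephronectin, had 0.07, -0.62 and 0.07, a mean of -0.16 ± 0.40, and was 0.07 without array 2.

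Among adhesive and matricellular glycoproteins the widest contrast was that of Mgp and Thbs2. Mgp, which encodes matrix Gla protein, an inhibitor of calcification and of BMP signals, had 2.27, 1.79 and 2.06. All arrays lay above 1.7, the mean corresponds to a 4.11-fold ratio, and 0.256% of all genes had a mean at least as high with array 3 as deposited. With it turned the mean was 0.67, at an unadjusted p of 0.514 by limma's test across all genes. Thbs2, which encodes a thrombospondin that restrains vessel growth, had -1.89, -0.54 and -1.27, a mean of -1.24 ± 0.68. The other thrombospondins were Thbs4 at 0.26 ± 0.10, positive on every array, and Thbs1 and Thbs3 at -0.29 ± 0.70 and 0.03 ± 0.64, with arrays on both sides of 0.

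Fn1, which encodes fibronectin, had -0.70, -0.44 and -0.12 over 2 probes, a mean of -0.42 ± 0.29. The probe with the tighter arrays had -0.61, -0.61 and -0.49, and the other had -0.79, -0.27 and 0.26. Sparc, a collagen-binding glycoprotein, had 0.10, 0.54 and 0.21, a mean of 0.28 ± 0.23, positive on every array. Tnc, which encodes tenascin C, had 2 probes of opposite sign, at 0.40 ± 0.56 and -0.46 ± 0.68, and a mean of -0.03 ± 0.44. Of 8 members with more than 1 probe on all arrays, 3 (37.5%) had probe means of opposite sign, namely Agrn, Col11a1 and Tnc, next to 53.8% of all such genes.

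**Figure D5:**
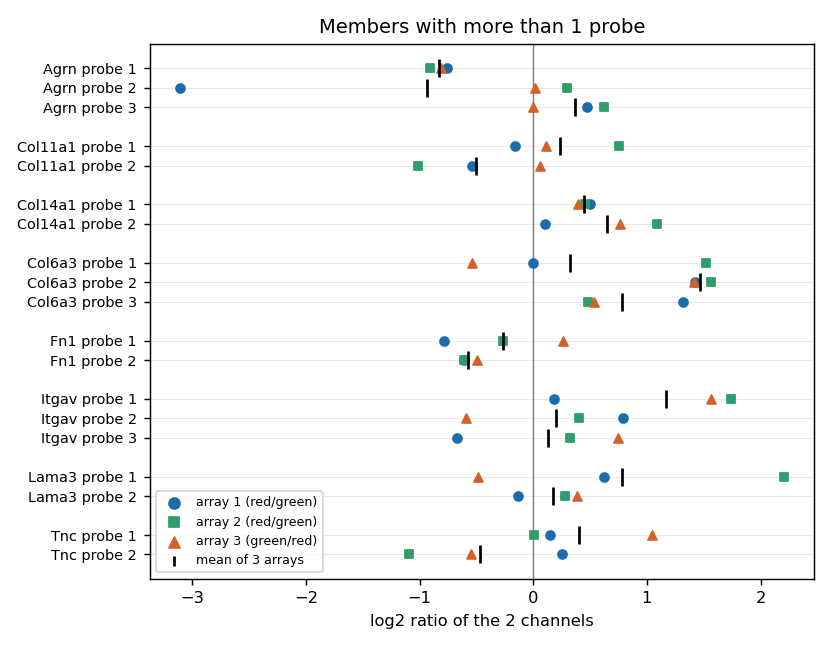
Log2 ratio on each of the 3 arrays (symbols) and their mean (black bar) for each probe of the 8 members with more than 1 probe. Probes of Col14a1, Col6a3, Fn1, Itgav and Lama3 have means of one sign, and those of Agrn, Col11a1 and Tnc do not.

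Integrins are receptors of an alpha and a beta chain that join matrix to the cytoskeleton. Of 21 measured chains 14 had a negative and 7 a positive mean (33.3%, next to 49.8% of all genes), with a median of -0.27. At an unadjusted p under 0.05 there were 4 negative and 0 positive chains, or 19.0% in all, close to the 19.6% of all genes. The negative share was 19.0%, next to 9.69%. The median chain was -0.45 on array 1 and -0.31 on array 2 but 0.06 on array 3. Fitting dye order as a term gave a median of -0.18, with 5 negative chains (23.8%) and 0 positive under that threshold, next to 21.3% of all genes, although dye order and the identity of array 3 cannot be told apart. Without array 1 the median of the chains was -0.00365 and 0 had an unadjusted p under 0.05 by limma, next to 8.23% of all genes. It was -0.15 without array 2, with 2 negative chains (9.52%, next to 10.3%), and -0.36 without array 3, with 6 negative chains and 1 positive chain (33.3%, next to 21%). Turning array 3 gave a median of -0.20, with 2 negative chains (9.52%, next to 5.55%) and 0 positive.

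Itga5, the alpha chain of the fibronectin receptor, had -0.40, -0.79 and -0.59, a mean of -0.59 ± 0.20. Itga6, an alpha chain of laminin receptors, had -0.70, -0.94 and -0.27, a mean of -0.64 ± 0.34. Itga7, the laminin receptor chain of skeletal muscle, had -0.72, -0.25 and -0.97, a mean of -0.65 ± 0.37. These alpha chains were negative on every array. All 7 markers of skeletal muscle and somite (Acta1, Myl1, Tnnc1, Tcf15, Myog, Myod1 and Pax3) had a negative mean, with a median by array from -1.67 to -1.43. Myog, Myod1 and Pax3 had arrays on both sides of 0, at means of -0.78, -0.17 and -0.14. Of the 7 markers 4 had an unadjusted p under 0.05 by limma, next to 9.69% of all genes on the negative side. Their part in the ratio of Itga7 was not tested.

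Itgav, an alpha chain that binds fibronectin, nephronectin and other ligands, had 0.10, 0.82 and 0.57 over 3 probes, a mean of 0.50 ± 0.37. It was the one integrin chain with a positive ratio on all 3 arrays, although its probes ranged from 1.17 ± 0.85 to 0.13 ± 0.73. Itga8, the nephronectin receptor chain of the metanephric mesenchyme, had -0.58, -1.22 and 0.28, a mean of -0.50 ± 0.75, with array 3 on the other side. Its partner Itgb1 had -0.33, -0.52 and 0.06, a mean of -0.26 ± 0.29, with the same order of arrays. Itga3, the laminin receptor chain of the ureteric bud and podocyte, had -0.11 ± 0.45.

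Itga4 and Itga2 had wide spreads. Itga4, which binds fibronectin and vascular cell adhesion molecules, had -1.65, -4.22 and 0.06, a mean of -1.94 ± 2.15, which was -0.80 without array 2. Itga2, a collagen receptor chain, had -3.71, -0.74 and 2.14, a mean of -0.77 ± 2.92. Turning array 3 gave -1.98 for Itga4 and -2.20 for Itga2. In both genes array 3 was the highest and arrays 1 and 2 were negative.

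Among 6 beta chains, Itgb7, which pairs with leukocyte alpha chains, had -0.89, -0.68 and -0.37, a mean of -0.65 ± 0.26. Itgb6, an epithelial chain that activates TGF-beta, had -0.97, -1.78 and -0.16, a mean of -0.97 ± 0.81. Both were negative on every array. Itgb5 had -0.71 ± 0.74, with array 2 at 0.01, and Itgb4, the laminin receptor chain of hemidesmosomes, had -0.60 on array 1 and 1.44 on array 3 and no value on array 2.

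The 8 chains known from leukocytes and platelets (Itgal, Itgam, Itgax, Itgae, Itga2b, Itgb2, Itgb3 and Itgb7) had a median of 0.05. Itgb7 alone among them had the same sign on every array. Of 6 leukocyte markers measured (Tyrobp, Lyz2, Fcer1g, Aif1, Ptprc and Cd68) all had a positive mean, with a median by array from 0.45 to 0.87. Of these markers 3 had an unadjusted p under 0.05 by limma, next to 9.89% of all genes on the positive side. Ptprc and Cd68 had means of only 0.09 and 0.03, each with array 2 below 0. The broad leukocyte integrin chain Itgb2 had 0.06 ± 0.21, with array 2 below 0. The 3 platelet markers measured (Ppbp, Gp9 and Gp1bb) had positive means from 0.15 to 0.42, but 0 had an unadjusted p under 0.05 by limma, next to 19.6% of all genes. Ppbp was positive on every array, whereas Gp9 and Gp1bb had arrays on both sides of 0. Itga2b had 0.33 ± 0.49, with array 3 below 0. How far these cells enter the integrin ratios was not tested.

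Genes that assemble the matrix or link it to the cytoskeleton were counted from a list of 65, of which 50 were measured. Of these, 3 positive and 9 negative genes had an unadjusted p under 0.05 by limma and 0 passed adjustment over all genes, where 9.89% and 9.69% of all genes lay at the unadjusted threshold on the positive and negative side. The 12 (24%) became 3 (6%) with array 3 turned, 4 (8%) without array 1 and 5 (10%) without array 2, next to 5.55%, 8.23% and 10.3% of all genes. Without array 3 there were 9 (18%), next to 21% of all genes. Among 20 genes for collagen processing and cross-linking there were 2 positive and 0 negative at that threshold, next to 9.89% and 9.69% of all genes. The positive share was thus close to that of all genes. Plod2, a lysyl hydroxylase that prepares collagen for cross-links, had 0.96, 1.12 and 0.94, a mean of 1.01 ± 0.10, and Loxl1, a cross-linking oxidase of elastic fibres, had 0.78, 0.46 and 0.93.

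Of 17 proteoglycan genes measured, 0 positive and 4 negative ones had an unadjusted p under 0.05, next to 9.89% and 9.69% of all genes. The 4 were the cell surface heparan sulfate proteoglycan genes Gpc3 at -0.61 ± 0.14, Gpc1 at -0.60 ± 0.20, Gpc4 at -0.46 ± 0.15 and Sdc1 at -0.62 ± 0.36. Inside the cell, 5 of 13 adhesion partners were negative and 1 positive at that threshold, next to 9.69% and 9.89% of all genes. Ilk, the kinase-like adaptor bound to integrin beta chains, had -1.50, -1.63 and -1.29, a mean of -1.47 ± 0.17. Tln1 and Tln2, the talins that activate integrins, had -0.83 ± 0.19 and -0.96 ± 0.43. Zyx had -0.78 ± 0.33 and Bcar1 -0.38 ± 0.02, while Lims1, a partner of Ilk, had 0.49 ± 0.18. All of these were on one side of 0 on every array.

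Markers of other tissues lay on both sides in these ratios. All 4 renal stroma markers measured (Foxd1, Tcf21, Meis1 and Hic1) were positive on every array, with a median by array from 1.34 to 1.67. All 5 limb bud and flank markers (Pitx1, Msx1, Prrx1, Prrx2 and Msx2) were negative on every array, with a median by array from -1.52 to -1.02, and 4 of 5 markers of visceral endoderm and liver were too. Alb, the other liver marker, was positive on every array, at 0.20, 0.62 and 0.28. Of 7 endothelial markers 6 were negative on every array, with a median by array from -0.44 to -0.40. Of all genes, 22.9% were positive on every array and 22.5% negative. Ureteric bud markers had 5 positive and 1 negative mean of 6 measured, with a median of 0.22, and metanephric mesenchyme markers 5 and 2 of 7, with a median of 0.14. Markers within each list differed. On every array 4 bud markers were positive and 1, Ret at a mean of -0.43, was negative. Of the mesenchyme markers 2 were positive on every array and 1, Osr1 at -0.36, was negative. The part of any of these cell types in the matrix ratios was not tested.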

How the data were processed

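Ratios came from 3 two-colour arrays of the Compugen mouse oligonucleotide set, each holding both tissues. Per the labels, the authors read spots with Imagene 5.5 and then applied print-tip lowess and a between-array step in R, with lowess fitted over 20% of the data at each point, and they set control channel values under 10 to 10. The deposited values are log2 ratios, used as the authors normalized them. The lowest value over the arrays is -6.64, the log2 of 0.01, a value no member had. The ratios carry no spot brightness, so distance above background is unknown, and precision is limited by having 3 arrays. No source used here gives the study's genome build.

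Probes were named from the platform annotation, and updating symbols through Entrez identifiers changed 0. Control spots were left out. Probes with 1 symbol and a value on all 3 arrays were averaged per gene and array. In R 4.3.3, limma 3.58.1 (lmFit, then eBayes) gave a two-sided test of each mean ratio against 0, and p-values were adjusted by Benjamini-Hochberg over 14047 genes or 19660 probes. The fit was tested on simulated data. Values after ± are SDs over arrays. Differences between genes are per-array differences of log2 ratios, with no test. Promoter windows are RefSeq's. Figures were drawn with Matplotlib 3.10.9.

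Members and lists were chosen with earlier results of these data known. The naming rule took up to 4 members per role group by smallest unadjusted p, plus a set of early kidney matrix genes wherever measured. Other members, and genes of the assembly lists, were named after their values were seen. Members with a value on fewer than 3 arrays (Col4a1, Lamc1, Fbln2, Itgb4 and Col19a1) were not tested. Alternatives were array 3 turned, each array left out, a dye term, centring, scaling, other joins of probes, genes on at least 2 arrays, other variance estimates and limited extreme values.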

Additional observations from a re-analysis of the deposited data

How the results depend on the processing

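At an adjusted p of 0.05 by limma 0 members passed under every alternative run, a design in which such a count says little about stability. The 25 members at an unadjusted p became 2 once array 3 was turned, and 9 to 23 when single arrays were dropped. All 25 had one sign on every array, so their loss on turning array 3 was close to fixed in advance. The other alternatives gave 17 to 26, and the 17 without variance moderation held 10 of the 25. For probes of members the 27 became 2 and 11 to 24 in the same way, and for matrix assembly genes the 12 became 3 and 4 to 9. One sign throughout was kept by 15 members (17.2%, next to 25.6% of all genes) with array 3 turned, and by 52 to 59 (59.8% to 67.8%, next to 59% to 71.1%) over any pair of arrays, a weaker demand. The median of the members ran from -0.11 to -0.00365 with an array left out. Signs turned for the following mean log2 ratios. With array 3 turned these were Col4a2 0.096, Col4a5 -0.40, Fbln5 -0.0067, Fbln7 0.21, Col11a2 -0.38, Col5a3 -0.098, Frem2 -0.10, Itga9 0.037, Itgae -0.43, Itgam 0.65, Itgb5 0.27, Itgb2 -0.048, Itgb3 -0.066, Lamb1 -0.012, Lama5 -0.10, Col6a1 -0.024, Col6a4 0.020, Col15a1 -0.37, Col10a1 -0.26, Col9a2 -0.38, Col9a3 -1.73, Col9a1 0.033, Col12a1 -0.28 and Col22a1 0.13. With a dye term they were Tnc 0.039, Col1a2 -0.020, Col5a1 0.24, Itga3 0.020, Lamb3 0.0071 and Col7a1 -0.0057, after median centring Col12a1 -0.00067 and Col7a1 -0.0045, and after scaling by spread Thbs3 -0.0076 and Col5a1 0.027. With an array left out the means that crossed 0 ran over these ranges: Thbs1 -0.58 to 0.10, Tnc -0.17 to 0.23, Thbs3 -0.31 to 0.32, Col4a4 -0.057 to 0.24, Col4a5 -0.16 to 0.57, Col4a6 -0.082 to 0.097, Fbln7 -0.31 to 0.030, Col3a1 -2.16 to 0.089, Col11a2 -0.066 to 0.61, Col1a2 -0.15 to 0.15, Col5a1 -0.60 to 0.69, Npnt -0.28 to 0.068, Itgae -0.11 to 0.58, Itga2 -2.23 to 0.70, Itgal -0.065 to 0.31, Itga3 -0.36 to 0.077, Itgam -0.77 to 0.39, Itgb2 -0.0028 to 0.18, Itgb3 -0.15 to 0.27, Lamc3 -0.68 to 0.18, Lamb3 -0.21 to 0.22, Lama5 -0.045 to 0.20, Col10a1 -0.088 to 0.27, Col9a2 -0.20 to 1.35, Col9a3 -0.91 to 1.66, Col9a1 -0.043 to 0.011, Col12a1 -0.20 to 0.23, Col7a1 -0.17 to 0.16 and Col22a1 -0.22 to 0.095. The cause was not tested. Each ratio already sets both tissues against each other within an array, so the test against 0 is paired by array. Beyond that pairing, no replicate block could be fitted, since the arrays form 1 group. Joining every probe with a value was chosen after seeing the data and gave 24 members at an unadjusted p.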

Other observations

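Col19a1, a collagen of muscle and brain, had -1.19 on array 1 and 0.66 on array 3 and no value on array 2, and one probe of Lama3 had a value on array 2 alone, at 1.22.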
